A study of Mus musculus with 40 samples.

Results

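The genes described here had mean levels within 1.5-fold of the start for 72 hr after Pou5f1 was shut off in mouse embryonic stem (ES) cells and were higher at 120 hr. They were selected on the deposited log10 values of the late time course, averaged over 3 arrays per time. A probe was kept where its 24, 48 and 72 hr means lay within 1.5-fold of the 0 hr mean and its 120 hr mean was at least 2-fold above it. The rule kept 232 probes, 1.42% of the 16292 gene probes with deposited values, on an array of 21052 gene probes. A symbol was found for 180 of them, all different genes, and 52 stayed unnamed. The 232 were 14.7% of the 1577 probes that were at least 2-fold up at 120 hr.

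The time courses used ZHBTc4, a single 129/Ola ES line in which Pou5f1 comes from a transgene that tetracycline turns off, so every array at every time carries the same modification. The late arrays held 3 replicates at 0 hr and after each further day of tetracycline up to 120 hr. A separate experiment on another array design gave 2 replicates for each of 0, 3, 6 and 12 hr and for 24 hr. A further 12 arrays held 4 ES lines, each cultured for 3 days with LIF (LIF+), without it (LIF-), or with LIF and 1 µM retinoic acid (LIF+RA). These were MG1.19 (129Sv), an episomal Nanog clone made from it, ES 129.3 (129SvEv-Tac) and an integrated Nanog/EF1 clone of the same background, with 1 array per line and medium. Every array paired the sample in Cy3 with a pooled reference RNA (Universal Mouse Reference) in Cy5, and values below are log2(Cy3/Cy5) from the scanner signals unless said otherwise. The labels do not say whether replicates came from separate cultures, so p-values measure only the spread between these samples, which may be technical. RNA came from bulk cultures, in which a larger share of expressing cells and more RNA per cell cannot be told apart.

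Pou5f1 (Oct3/4) is a POU transcription factor of the pluripotent network, and ES cells that lose it leave that state and turn to trophectoderm, the outer layer of the blastocyst that builds the placenta. Lysosomes are acidified by a proton pump and filled with proteases of the cathepsin family, and many genes for both carry a short promoter element, called CLEAR, that is bound by TFEB and related factors. Retinoic acid acts through nuclear receptors and drives ES cells out of self-renewal, while LIF holds them in it through gp130 and STAT3.

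Lysosomal genes made up the longest run of members in any of the gene lists used, and 5 of the 6 with a promoter window held the CLEAR core letters CACGTGAC. Their promoters are printed for that reason, from 250 bases before to 30 after the RefSeq start on GRCm38.p6, read in the direction of the gene, with each match on either strand in capitals. The Ctsd (cathepsin D) window is chr7:142387798-142388077, minus strand, and it holds 2 matches. Lamp1 (a major lysosomal membrane glycoprotein) lies at chr8:13158911-13159190, plus strand. Lgmn (legumain, an asparaginyl endopeptidase) lies at chr12:102439063-102439342, minus strand. Cln3 (the lysosomal membrane protein of juvenile Batten disease) lies at chr7:126583207-126583486, minus strand, with 2 overlapping matches on opposite strands. Atp6v0d1 (a subunit of the proton pump) lies at chr8:105566035-105566314, minus strand.
Ctsd: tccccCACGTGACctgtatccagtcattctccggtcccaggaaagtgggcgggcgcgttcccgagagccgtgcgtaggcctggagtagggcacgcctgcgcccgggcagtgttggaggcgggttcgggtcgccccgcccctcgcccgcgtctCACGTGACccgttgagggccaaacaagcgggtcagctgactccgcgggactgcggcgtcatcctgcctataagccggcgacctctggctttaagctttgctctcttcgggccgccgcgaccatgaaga
Lamp1: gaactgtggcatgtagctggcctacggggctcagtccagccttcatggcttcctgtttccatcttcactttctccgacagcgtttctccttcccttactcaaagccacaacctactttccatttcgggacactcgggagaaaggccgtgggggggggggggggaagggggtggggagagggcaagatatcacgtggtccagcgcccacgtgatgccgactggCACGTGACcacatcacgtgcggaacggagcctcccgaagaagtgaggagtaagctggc
Lgmn: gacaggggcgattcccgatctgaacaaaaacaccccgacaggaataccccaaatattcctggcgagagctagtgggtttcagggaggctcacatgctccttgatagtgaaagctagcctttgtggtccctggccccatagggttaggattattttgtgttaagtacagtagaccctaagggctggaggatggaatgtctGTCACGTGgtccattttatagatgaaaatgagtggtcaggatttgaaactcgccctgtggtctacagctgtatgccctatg
Cln3: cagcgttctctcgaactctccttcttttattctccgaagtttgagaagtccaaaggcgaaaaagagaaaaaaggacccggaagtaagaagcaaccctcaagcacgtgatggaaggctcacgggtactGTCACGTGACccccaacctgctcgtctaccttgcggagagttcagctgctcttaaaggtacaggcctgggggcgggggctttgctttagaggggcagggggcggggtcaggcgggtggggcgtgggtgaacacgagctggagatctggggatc
Atp6v0d1: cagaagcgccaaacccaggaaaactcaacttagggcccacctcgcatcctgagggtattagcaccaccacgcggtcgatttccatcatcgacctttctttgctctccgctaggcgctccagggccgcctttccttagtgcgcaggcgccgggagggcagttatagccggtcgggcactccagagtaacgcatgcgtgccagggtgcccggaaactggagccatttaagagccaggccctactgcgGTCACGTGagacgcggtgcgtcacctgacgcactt

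The nearest match stood 98 bases before the start in Ctsd, 28 in Lamp1, 51 in Lgmn, 121 in Cln3 and 5 in Atp6v0d1, while the window of Atp6ap1 held none. Windows were found for 150 of the 180 named members, 26 of them with several starts, and 9 of the 150 (6.0%) held CACGTGAC, against 4.1% of 8741 measured genes and 2.55% of all 27025 genes with a window. Of the 49 genes of the whole lysosome list with a window, 13 (26.5%) held it, members or not. The E-box letters CACGTG, which the CLEAR core contains, were in 16.7% of members and 10.8% of measured genes. Both motifs were searched after the members were known. Other motifs, each searched on both strands, gave shares for members and for measured genes that lay mostly close together. TEAD (GGAATG) was in 16.0% and 15.1%, ETS (CCGGAA) in 24.7% and 25.2%, and the CCAAT box in 38.0% and 43.0%. AP-1 (TGANTCA) was in 6.0% and 8.12%. The letters AGATAA, which GATA factors read, were in 6.67% and 9.64%. Those of the core promoter element named the TATA box were in 8.67% and 12.5%. The widest gap was for TFAP2 (GCCNNNGGC), in 36.7% of members and 26.3% of measured genes. These shares are descriptions of letters, not of bound sites.

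On the scanner signals, which the rule did not read directly, the median change of the members against 0 hr was -0.01 on day 1 (24 hr) and 0.03 on day 2. It was 0.30 by 72 hr, 0.71 a day later and 1.02 by 120 hr. The median over all probes was within 0.01 of 0 at every time. Because the 0, 24, 48, 72 and 120 hr arrays chose the members and the 96 hr arrays share the 0 hr controls, these values carry no test. At 120 hr the Cy3 channel alone moved by 1.03 and the Cy5 reference channel by 0.10. The 120 hr arrays had medians of 0.88, 1.10 and 1.09, the 96 hr arrays 0.61, 0.77 and 0.76, and the 72 hr arrays 0.22, 0.35 and 0.32. The first array was the lowest of its 3 at each of these times.

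**Figure D1:**
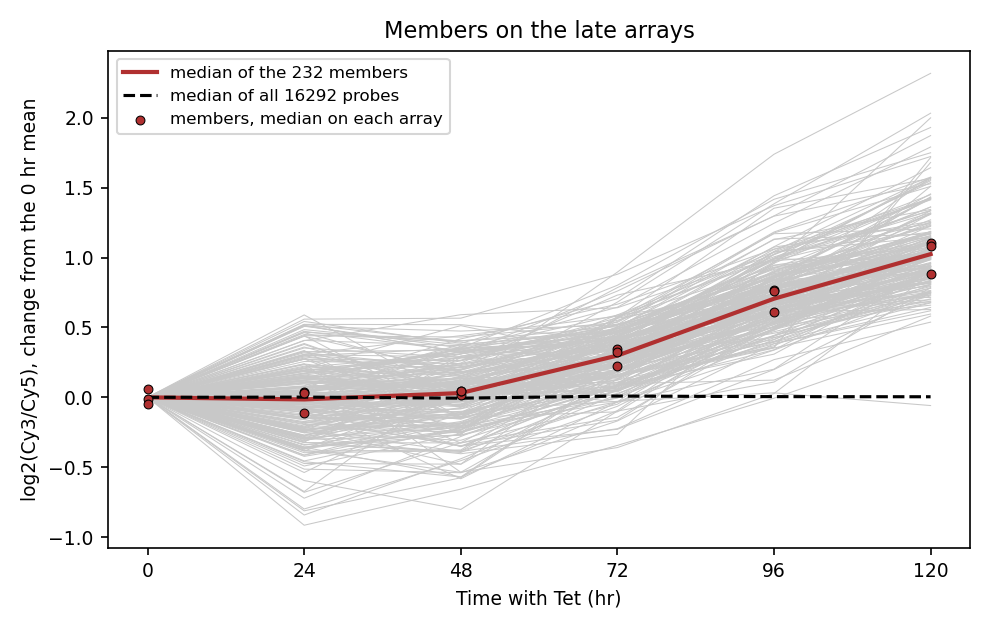
Change of the 232 members on the late arrays against the 0 hr mean (vertical axis, log2(Cy3/Cy5) from scanner signals) by hours after tetracycline (horizontal axis). Grey lines are members, the red line their median, points the medians of single arrays and the dashed line the median of all probes. The members' median stays near 0 at 24 and 48 hr, is 0.30 at 72 hr and reaches 1.02 at 120 hr.

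Intermediate values preceded 120 hr. All 232 members were higher at 96 hr than at 72 hr on the deposited means, 215 were already past 1.5-fold at 96 hr and 50 past 2-fold. The share of the 120 hr rise reached was 34.0% at 72 hr and 71.1% at 96 hr, as medians over members. Every 72 hr array already lay above all 0 hr arrays for 141 members (60.8%), where 26.8% of all probes did so, although their means were within 1.5-fold by the rule. The same held for 215 members (92.7%) on the 96 hr arrays and 28.7% of all probes, and for 228 (98.3%) on the 120 hr arrays and 29.9%. Since the 0, 72 and 120 hr arrays were used to select the members, nothing is read from these shares. Slc7a8, an amino acid transporter, was the single member not higher at 120 hr than at 96 hr, at 104% of its rise by 96 hr. Twsg1, a secreted BMP-binding protein, stood at 98.3% and Abca3, a lipid transporter, at 95.5%. Of the members with a symbol, the lowest shares by 96 hr were Mtif2 at 4.21%, a value that rests on 1 outlier spot, Usp18 at 21.0% and Tnk2 at 40.9%, and 5 of all 232 members were under 25%. Usp18, which removes the ubiquitin-like ISG15, had arrays of -3.32, -3.60 and -3.80 at 0 hr and -2.12, -2.06 and -2.01 at 120 hr. These groups did not overlap, but they are among those that chose the members.

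The size of the rise was modest, with a median of 2.26-fold, 20 members at 3-fold or more, and a highest value of 4.80-fold for an unnamed probe. Scanner values gave at least 2-fold for 130 members and at least 1.5-fold for 228. At the 120 hr limit, Abcd4 (0.3012 in log10), Tmf1 (0.3015) and Usp38 (0.3016) lay just inside, and Slc23a2 (0.3002) and a pair of unnamed probes (both 0.3003) just outside. At the 72 hr limit, Smg1 (0.1757), Nagk (0.1747) and Ppp1r9b (0.1740) lay just inside, and Art4 (0.1761), Ate1 (0.1769) and Homer2 (0.1771) just outside. A further 454 probes were flat at 24 and 48 hr, past 1.5-fold up at 72 hr and at least 2-fold up at 120 hr. Many genes of like timing thus fall outside the 72 hr limit. Membership was also sensitive to single arrays, and 116 of the 232 were kept whichever of the 15 arrays was left out. Applying the same limits to scanner ratios kept 112 of them.

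The scanner values did not bear out every member. At 24, 48 and 72 hr, 210 of the 232 were within 1.5-fold of 0 hr on them. The member without a 120 hr rise on them was Mtif2, a mitochondrial translation initiation factor. Its deposited 120 hr values were 3.54, 3.63 and 5.14, and the spot behind the highest was marked as an outlier by the scanner software. The other arrays at 120 hr read 1.195 and 1.503 in log2(Cy3/Cy5), against a 0 hr range of 1.245 to 1.59, for a change of -0.06. No other member was below its 0 hr mean at 120 hr on scanner values. No member was saturated, and 28 did not exceed 95% of the array's negative control spots on any 0 hr array, a state shared by 18.6% of all probes, so the starting level of those 28 is only a bound. None was that dim on all 120 hr arrays. The median Cy3 signal of the members was 840 at 0 hr and 1100 at 120 hr.

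Pou5f1 and the cell type markers checked the late arrays. Pou5f1 fell from between 1.91 and 2.40 at 0 hr to between -0.30 and 0.09 at 24 hr, and was between -0.03 and 0.11 at 120 hr. The 15 ES markers measured had a median change of -1.51 at 120 hr, with 12 past 1.5-fold lower. Of 11 trophectoderm markers 8 were past 1.5-fold higher, with a median of 2.72, and their median was already 1.18 at 24 hr. Medians for giant cell (0.14), endoderm (0.07), mesoderm (-0.09), neural (0.03), fibroblast (-0.03) and endothelial or blood (-0.01) markers were near 0, and no member belongs to any of these lists. Median Cy3 signals ran from 596 to 776 on late, 595 to 672 on early and 531 to 662 on medium arrays. The negative controls' 95th percentile was higher at 0 hr (627 to 653) than at 120 hr (506 to 511), and the part of this in the low members' change was not tested.

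Lysosomal and endocytic genes supplied 7 members of 54 measured probes (13.0%), where the rule kept 1.42% of all probes, and 16 others of the list were 2-fold up at 120 hr but past 1.5-fold from the 0 hr mean at an earlier time. The lists were drawn up with earlier results of these data known, so these shares are descriptions. Lgmn read -0.16, -0.18 and -0.27 on the 0 hr arrays and -0.23, -0.02 and -0.08 on the 72 hr arrays. Its 120 hr arrays read 1.28, 1.38 and 1.41, a deposited rise of 3.87-fold. Ctsd went from 0.38, 0.30 and 0.15 to 1.15, 1.44 and 1.37 (2.88-fold). Its 72 hr arrays read 0.38, 0.61 and 0.54, and its deposited 72 hr change of 0.1739 in log10 lay close under the 1.5-fold limit. Ctsb, cathepsin B, went from -1.32, -1.38 and -1.41 to -0.39, -0.15 and -0.03 (2.54-fold). The 3 proteases thus had 120 hr arrays well clear of their 0 hr arrays. Lamp1 went from 1.43, 1.32 and 1.41 to 2.09, 2.17 and 2.11. Cln3 went from 0.11, -0.06 and -0.01 to 0.91, 1.15 and 0.99. Of the pump subunits, Atp6ap1 changed by 1.11 on scanner values. Atp6v0d1 changed by 0.54, its arrays moving from 1.49, 1.35 and 1.68 to 1.92, 2.16 and 2.07.

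**Figure D2:**
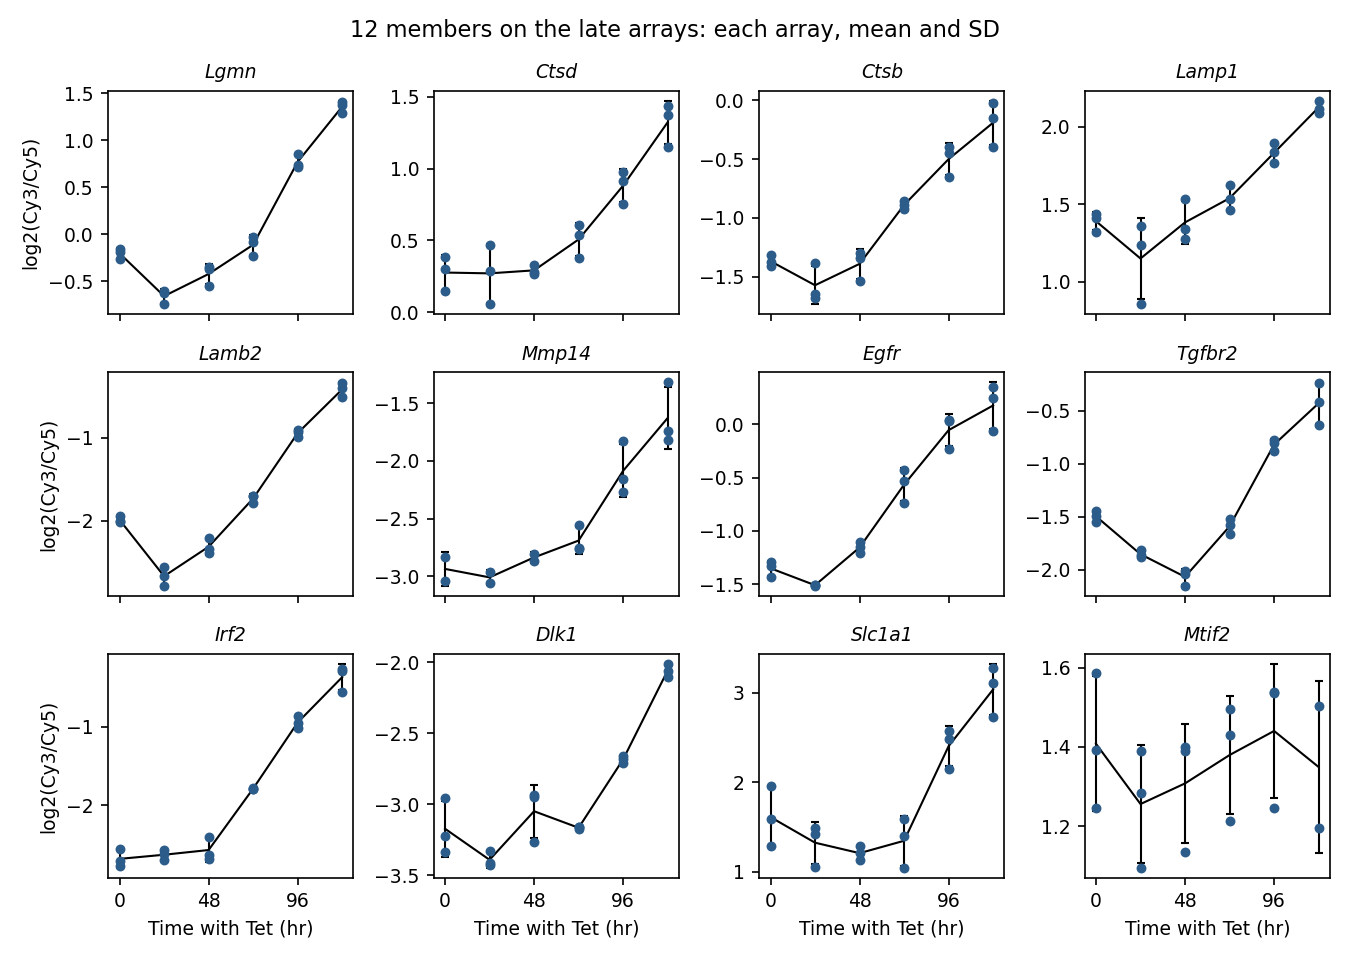
Every late array for 12 members, as log2(Cy3/Cy5) (vertical axes) by hours after tetracycline (horizontal axes), points being arrays, lines their means and bars the SD. Lgmn, Lamb2, Irf2 and Egfr stand clear of their 0 hr arrays at 120 hr, on arrays that chose the members, while Mtif2 has no higher array.

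Proteases and protease inhibitors gave 4 members of 47 (8.51%), all proteases: Mmp14, a membrane-type matrix metalloproteinase, Adam19 and Adamts4, metalloproteinases of the adamalysin families, and the serine protease Prss23. Mmp14 read -2.83 and -3.04 on the 0 hr arrays with a value and -1.32, -1.82 and -1.75 at 120 hr (3.00-fold on deposited values). Adam19 rose from -0.06, 0.13 and 0.15 to 1.26, 1.59 and 1.62. Adamts4 rose from -0.73, -0.68 and -0.77 to 0.35, 0.30 and 0.47. All 4 had 120 hr arrays above every 0 hr array, a separation that the rule favours. Matrix and basement membrane genes gave 3 of 49 (6.12%). Lamb2, a laminin beta chain, had the clearest change of these, from -2.002, -2.02 and -1.95 to -0.51, -0.41 and -0.34 (3.77-fold). Before that rise Lamb2 was lower on scanner values at 24 hr (-0.68, past 1.5-fold) and 48 hr (-0.32). The proteoglycan Bgn went from -4.77, -4.76 and -5.14 to -3.83, -3.98 and -4.04. Nid1, which links laminin to collagen, was lower at 24 hr (-0.91) and 48 hr (-0.66) and only 0.38 above 0 hr at 120 hr on scanner values.

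Receptors and signalling proteins included Egfr, the receptor of epidermal growth factor, and Tgfbr2, the ligand-binding TGF-beta receptor, the members among 73 probes for growth factors and receptors. Egfr read -1.33, -1.43 and -1.30 at 0 hr and -0.06, 0.35 and 0.25 at 120 hr, a change of 1.53. Tgfbr2 read -1.49, -1.45 and -1.55 at 0 hr and -0.63, -0.24 and -0.42 at 120 hr. In neither gene did the 0 and 120 hr arrays overlap, which the choice of members on these arrays favours. Flt3, a receptor tyrosine kinase best known in blood progenitors, rose by 1.79, from -0.52, -0.38 and -0.40 to 1.18, 1.51 and 1.38. The semaphorin Sema3e rose by 1.87, and Dlk1, a membrane protein related to Notch ligands, by 1.11 from arrays of -2.96, -3.22 and -3.34. Among transcription factors Irf2, an interferon regulatory factor, changed most, from -2.56, -2.71 and -2.78 to -0.56, -0.26 and -0.28, a change of 2.32. On scanner values Irf2 was already 0.90 up at 72 hr, Sema3e 0.76 and Flt3 0.64, each past 1.5-fold. Bhlhe40, a basic helix-loop-helix repressor, changed by 1.34 and was the member from both the trophoblast factor list (48 probes) and the retinoid list (28 probes).

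Slc1a1, a glutamate and cysteine transporter, had the largest deposited rise of any named member (4.16-fold), from 1.59, 1.28 and 1.96 at 0 hr and 1.04, 1.59 and 1.40 at 72 hr to 2.73, 3.28 and 3.10 at 120 hr. Slc35f2 was lower at 24 hr (-0.81) and 48 hr (-0.58) before its rise of 1.43, and Slc19a2, a thiamine transporter, was also lower at 24 hr (-0.80) and 0.91 up at 120 hr. Ank, which exports pyrophosphate, rose by 2.03 and was already 0.68 up at 72 hr, past 1.5-fold. The antioxidant enzyme Prdx5 rose by 1.54, the pseudokinase Stradb by 1.55, Tmem59 by 1.36 and the p53 target Sesn1 by 1.32. Keratin and junction genes gave Gjb2 (a connexin, 1.187) and Dsg2 (a desmoglein, 0.89), 2 of 39. Interferon genes gave Usp18 and Oas1a (0.91), also 2 of 39. Lipid genes gave the chaperone Clu (1.72) and the desaturase Scd2, 2 of 51. Scd2 was uneven, with 0.01, 1.22 and 1.28 at 120 hr against -0.33, -0.26 and 0.01 at 0 hr, so its groups met. Tln1 (talin) was the single member of 53 actin and adhesion probes, of which 30 others were 2-fold up at 120 hr. No member came from 43 giant cell and placental hormone probes, of which 9 others were up, from 32 hypoxia and glycolysis probes or from 15 LIF response probes. In all, 25 members were in any list.

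The early arrays asked whether members moved in the first day in a separate experiment. Of the 232, 230 had a probe of identical sequence there, all but Lgmn and Vhl. With limma and Benjamini-Hochberg adjustment over all probes, calls needed an adjusted p of 0.05 and 1.5-fold. At 3 hr no member was called higher or lower (0% of all probes in each direction), with 12 and 15 past an unadjusted p of 0.05. No share of all probes was computed at that unadjusted p, so nothing is read from the 12 and 15. At 6 hr 9 were higher and 1 lower (2.11% and 0.105% of all probes), and at 12 hr 2 were higher and 3 lower (0.209% and 0.383%). At 24 hr 30 (13.0%) were higher and 6 (2.61%) lower, against 7.05% and 1.97% of all probes. These shares cover every probe of the early design. None was computed for probes with deposited late values, from which the members come, so nothing is read from the gap.

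Among the early calls to higher ratios, the Cy5 reference channel moved more than the sample channel. The 30 members called higher at 24 hr had a median ratio change of 0.88, of which the Cy3 channel alone gave 0.17 and the Cy5 channel -0.72, and 24 of the 30 moved up in Cy3, 3 of them past 1.5-fold. Ctsd went from 0.69 and 0.59 at 0 hr to 2.39 and 2.79 at 24 hr, a change of 1.95 with adjusted p = 0.000492 in limma. Its Cy3 channel moved by 0.33 (adjusted p = 0.0217 in limma, under 1.5-fold) and its Cy5 channel by -1.59, and the change was 0.54 after a correction for Cy5 bleaching (adjusted p = 0.0654) and 0.34 on the authors' values (adjusted p = 0.322). Exoc7, an exocyst subunit, had a ratio change of 1.64 (adjusted p = 0.00135 in limma) with 0.03 in Cy3 and -1.59 in Cy5. Prss23 had 1.63 (adjusted p = 0.0116 in limma) with 0.04 in Cy3 and -1.61 in Cy5. For all 3 the Cy3 change was small beside the Cy5 change.

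The calls to lower ratios lay mainly in the sample channel. Slc35f2 fell by 0.82 at 24 hr, from 2.55 and 2.43 to 1.46 and 1.87 (adjusted p = 0.00975 in limma), with -1.46 in Cy3. Plekhm1, an adaptor of late endosomes and lysosomes, changed by -0.89 (adjusted p = 0.00109 in limma; -0.68 in Cy3). The efflux pump Abcb1b changed by -0.90 (adjusted p = 0.00113 in limma; -0.74 in Cy3) and the sialyltransferase St3gal4 by -0.78 (adjusted p = 0.00292 in limma; -0.57 in Cy3). On the late arrays at 24 hr, whose deposited values the rule had limited, the scanner change was -0.81 for Slc35f2, past 1.5-fold, -0.40 for Abcb1b, -0.30 for Plekhm1 and -0.11 for St3gal4. With the error model of the study's methods no member was called at 24 hr, and the 36 calls became 14 without replicate 2 at 0 hr, 18 without replicate 1 at 0 hr and 19 without replicate 2 at 24 hr.

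Retinoic acid raised many of the members. Of 230, 63 (27.4%) were higher in LIF+RA than in LIF+ and 1 was lower, where 4.64% and 1.23% of all 41006 probes on the array were, or 8.07% and 1.89% of the 16106 probes that also had deposited late values. The median change was 0.30 over members and -0.01 over all probes. The 64 calls in either direction became 24 without background correction (2.41% of all probes) and 36 with the methods' error model (2.77%). They became 56 in the parental lines alone (5.82% of all probes) and 2 in the transgenic lines alone (0.224%). Of the 63, 52 had a symbol. The change was in the sample channel, with a median of 0.91 in Cy3 and 0.03 in Cy5 over the 63. Medians for single lines were 0.28 in MG1.19, 0.43 in the episomal clone, 0.24 in ES 129.3 and 0.27 in the integrated clone. Medians of all probes were -0.016, 0.032, -0.0077 and 0.0053 in the same order. Of 230 members, 176, 195, 177 and 179 were higher. The share of all probes higher by any amount was not computed, so nothing is read from these counts. The share of all probes past 1.5-fold higher was also largest in the episomal clone (9.06%, against 5.37%, 4.86% and 4.49% in the other lines in that order).

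**Figure D3:**
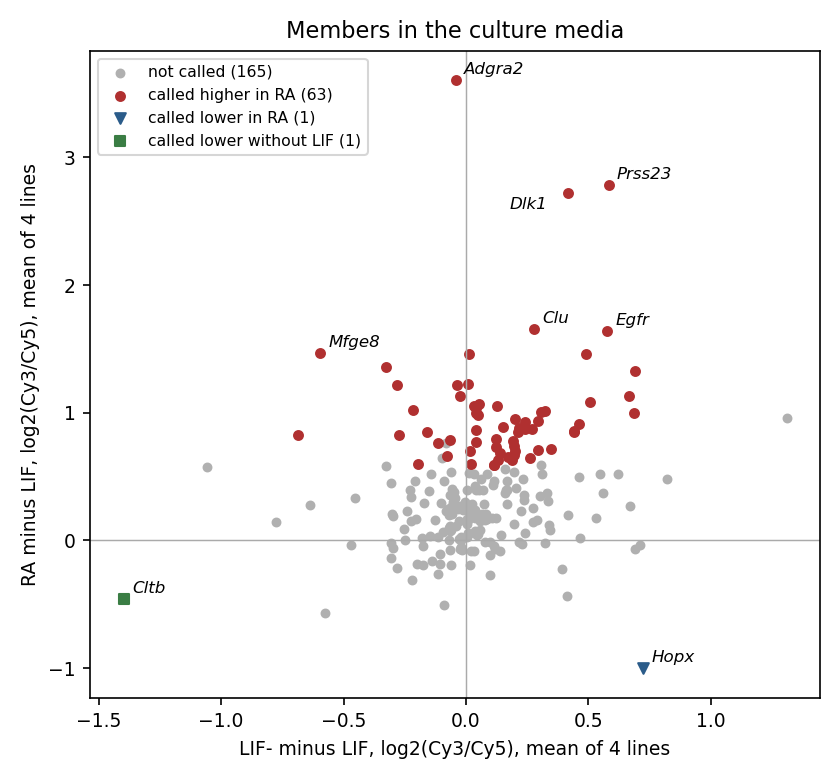
Change of each of 230 members in LIF+RA (vertical axis) and in LIF- (horizontal axis) against LIF+, both as mean log2 differences over 4 lines. Red points were called higher in LIF+RA, and the triangle and square mark the members called lower in LIF+RA and in LIF-. Most points lie above 0 on the vertical axis, up to 3.61 for Adgra2, and both axes share the LIF+ arrays.

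Adgra2, an adhesion G protein-coupled receptor of vessel and nervous system development, changed most, from between -3.37 and -2.57 in LIF+ to between -0.31 and 0.91 in LIF+RA. That was a change of 3.61 ± 0.18 (limma's moderated SE, which pools the spread over all 12 arrays and probes) with adjusted p = 5.06e-05 in limma. Dlk1 rose by 2.72 ± 0.17 (adjusted p = 0.000101 in limma), with 3.23, 2.92, 2.19 and 2.56 in MG1.19, the episomal clone, ES 129.3 and the integrated clone. Both genes were higher in every line by more than the lines differed among themselves. Prss23 rose by 2.79 ± 0.35 (adjusted p = 0.00145 in limma), and its LIF+ level was 0.26 in ES 129.3 but between -3.57 and -2.58 in the other lines. Clu rose by 1.66 ± 0.20 (adjusted p = 0.00124 in limma) and Egfr by 1.64 ± 0.25 (adjusted p = 0.00323 in limma). Egfr was uneven, with 1.94, 2.50, 1.38 and 0.73 in the same order of lines. Mfge8, a secreted protein that bridges dying cells to phagocytes, rose by 1.47 ± 0.13 (adjusted p = 0.000334 in limma).

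**Figure D4:**
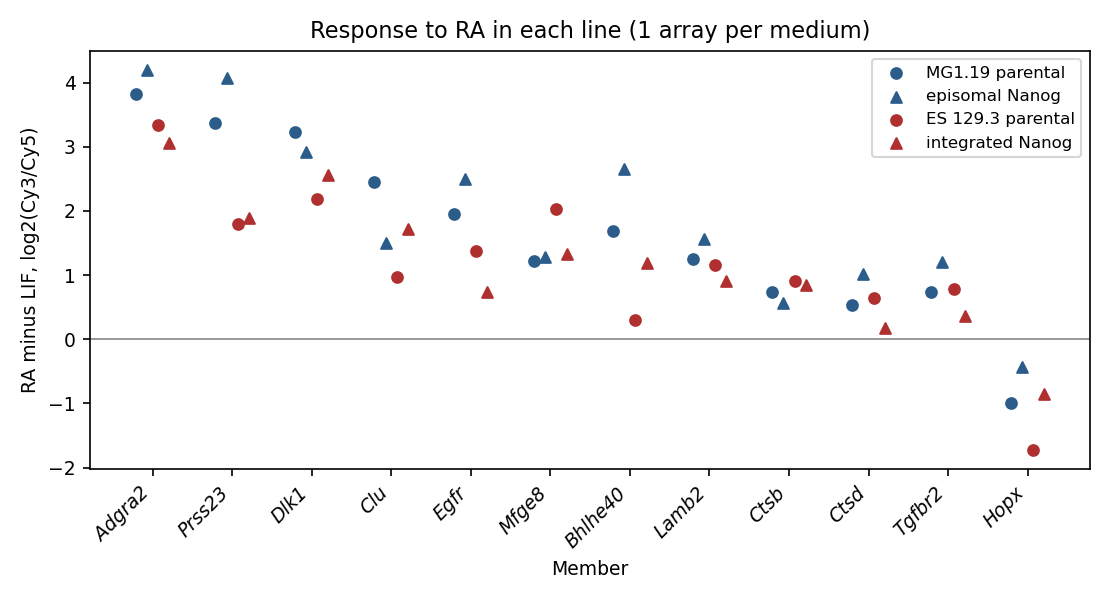
Change in LIF+RA against LIF+ for 12 members in each of 4 lines (vertical axis, log2 difference of 1 array each; horizontal axis, gene). Circles are parental lines and triangles Nanog clones, blue for 129Sv and red for 129SvEv-Tac. Every line lies above 0 for the genes called higher, and every line lies below 0 for Hopx.

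Lamb2 rose by 1.22 (adjusted p = 0.00021 in limma), Bgn by 0.87, Bhlhe40 by 1.46, Irf2 by 0.87, Tln1 by 0.79, Tgfbr2 by 0.77 and Mmp14 by 0.69. Of the lysosomal members with a probe, Ctsb (0.76, adjusted p = 0.000318 in limma) and Ctsd (0.59, adjusted p = 0.0116 in limma) were called, while Lamp1 (0.39, adjusted p = 0.108 in limma), Atp6v0d1 (0.52), Atp6ap1 (0.11) and Cln3 (-0.08) were not. The 2 cathepsins passed and the membrane and pump genes did not, a difference that was not tested. Several of the largest late risers were also not called, with Slc1a1 at -0.05, Flt3 at 0.02 and Slc35f2 at 0.02. Gjb2, with a smaller late rise, was not called either (0.04). Hopx, an atypical homeodomain protein, was the single member lower (-1.003 ± 0.19, adjusted p = 0.00913 in limma), with -0.997, -0.43, -1.72 and -0.86 by line. That call was lost without MG1.19 (adjusted p = 0.062 in limma), with the methods' error model (adjusted p = 0.0829), in the transgenic lines alone (adjusted p = 0.142) and without background correction, where the change was -0.53.

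Removal of LIF for 3 days gave few calls. None of 230 was called higher by limma and 1 was lower, where 0.505% and 0.532% of all probes were called, or 0.869% and 0.844% of those with deposited late values. At an unadjusted p of 0.05, 44 were higher and 24 lower. The share of all probes at that p was not computed, so nothing is read from these counts. The Cy3 channel alone called 2 higher and 1 lower, where 1.18% of all probes were called in either direction. The median change was 0.04. By line, 134 members were higher in MG1.19, 156 in the episomal clone, 108 in ES 129.3 and 126 in the integrated clone. No share of all probes was computed for this, and the medians of all probes were -0.0041, 0.040, -0.0034 and -0.0043. In the same order 13, 36, 3 and 12 members were past 1.5-fold higher, where 1.94%, 6.59%, 0.819% and 1.79% of all probes were. Among members not called, the change was 1.31 for Sema3e, -1.06 for Nid1, 0.73 for Hopx and 0.69 for Abcd4, with adjusted p of 0.0954, 0.061, 0.106 and 0.0703 in limma. Cltb, a clathrin light chain, was the member lower, by -1.40 ± 0.17 (adjusted p = 0.0109 in limma), from between 0.82 and 1.60 in LIF+ to between -0.46 and 0.42 in LIF-. The call was lost without MG1.19 (-1.24, adjusted p = 0.159 in limma), with the methods' error model (adjusted p = 0.263), without the line block (adjusted p = 0.08) and in the parental or the transgenic lines alone. Socs3, a target of LIF signalling, went from between 0.42 and 1.04 to between -2.25 and -1.64 in the same arrays, so the medium change was seen in the RNA. Against LIF-, 54 members were higher in LIF+RA and 4 lower (4.08% and 1.7% of all probes), the lower being Hopx, B3gnt7, Abcd4 and an unnamed probe. B3gnt7 was named after its value was seen.

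No member's response to either medium differed between the Nanog clones and the parental lines in the interaction test by limma (0 of 230 and 0% of all probes for each). At an unadjusted p of 0.05 there were 30 members for retinoic acid and 14 for LIF-. The share of all probes at that p was not computed, so nothing is read from these counts. With 2 lines on each side, the lack of calls does not show that clones and parental lines responded alike. Other late risers responded to retinoic acid at higher shares than the members. Of 843 linked probes 2-fold up at 24, 48 or 72 hr as well as at 120 hr, 45.1% were called higher. Another 451 linked probes were flat at 24 and 48 hr, past 1.5-fold at 72 hr and 2-fold up at 120 hr. Of these 34.8% were called higher, and a probe 2-fold up at 72 hr can be in both groups. Of 19 linked members at 3-fold or more on the late arrays, 8 (42.1%) were called. The differences between these shares were not tested.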

How the data were processed

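Total RNA from ES cells was hybridised to NIA mouse 60-mer arrays with a reference RNA. The authors deposited scanner files with mean spot intensity and local background per channel, and tables of log10 values (16292 of 21052 late gene probes) at the level of the Cy3 signal, normalised through Cy5. In 1 deposited column, treated as a score, 10 cells code for missing values and were set to missing. From the intensities, flagged outlier spots were dropped, background was corrected by normexp (offset 50), arrays were normalised by loess, and spots of a probe were averaged, in limma 3.58.1 (R 4.3.3). Times were tested against 0 hr, and media with line as a block, by limma's moderated statistics (two-sided, Benjamini-Hochberg). Adjusted p is from these fits. The late contrast chose the members and was not tested. Probes were linked between designs by identical sequence. Symbols came from RefSeq accessions (10422 late probes) or the study's probe table (1287). Promoters are RefSeq windows. Members, lists and the rule for named genes (largest rises, up to 4 per list, largest medium and early calls, probes nearest the limits, fastest and slowest at 96 hr) were chosen with earlier results of these data known. The fits were tested on simulated data. The Cy3-alone fits were chosen after seeing the data. The authors' late protocol label names another construct, and titles and methods were followed. The measurements are array intensities, without a read depth, and what limits their precision was not tested. One member named by that rule is not reported here.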

Additional observations from a re-analysis of the deposited data

Results flagged for a closer look

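In 10 sets of 4 lines tested for a line far from the others, 2 stood out, and chance marks about 1 set in 20. Mfge8 rose by 2.04 (log2) with retinoic acid in ES 129.3, where the other lines gave 1.22, 1.28 and 1.32. Cltb changed by -1.88 without LIF in MG1.19, where the other lines gave -1.27, -1.26 and -1.19. Each is 1 array against 1 array, and the cause was not tested.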

How the results depend on the processing

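The rule kept 20 probes with a 3-fold limit at 120 hr and 42 with a tighter flat limit, and between 186 and 341 when 1 array was left out. The members' median log2 change at 48, 72, 96 and 120 hr was 0.11, 0.44, 0.86 and 1.18 on deposited values, and 0.0088, 0.14, 0.38 and 0.57 without background correction. The Cy5 channel gave 0.064, -0.0075, 0.030 and 0.10, and the Cy3 channel 0.11 at 48 hr. Early calls depended on the processing. At 6 hr the 10 calls became 0 without background correction, with median centring, on the authors' values, after Cy5 bleaching correction, with the methods' error model and in Cy3 alone. At 12 hr the 5 became 0, 1, 3, 2 and 0 for the first 5 of these in the order given, and 1 on the scanner's processed signals. At 24 hr the 36 became 14 without background correction, 15 on the authors' values, 10 after bleaching correction, 0 with the methods' error model and 14 in Cy3 alone. With 1 early array left out, calls ran from 0 to 17 (6 hr), 0 to 16 (12 hr) and 14 to 48 (24 hr). Not every pair of same-numbered replicates deviated together (mean r of residuals 0.114 over 20 early pairs, from -0.136 to 0.337, and 0.151 over 45 late pairs, from -0.43 to 0.748), so numbers were not used as pairs, and a replicate block gave 18, 10 and 39 calls for 6, 12 and 24 hr. The 64 calls for retinoic acid became 24 without background correction, 36 with the methods' error model, 56 in the parental and 2 in the transgenic lines alone. The 58 against LIF- became 22, 26, 52 and 2 in the same order. The single LIF- call became 2 on processed signals and on the authors' values, 3 in Cy3 alone and with interaction terms, and 0 with the methods' error model, without the line block, or in parental or transgenic lines alone, with 0 to 6 when a line was left out. The 8 genes named for a medium response kept their direction in all 128 alternatives and were no longer called in 14. A block for processing day was not run. The cause of each change was not tested.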
